A study of Homo sapiens with 7 samples.

Results

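Lysosomal proteases are synthesised with a signal for import into the endoplasmic reticulum, tagged with mannose 6-phosphate, sorted to lysosomes and activated there by cleavage. Most cathepsins are papain-like cysteine proteases, while CTSD is an aspartic protease and CTSA a serine carboxypeptidase. Legumain, LGMN, is a cysteine protease that cuts after asparagine, and cystatin C, CST3, is a secreted inhibitor of papain-like proteases and of legumain. In antigen-presenting cells of the B lineage several of these enzymes trim antigens and the invariant chain of MHC class II. The 10 genes described here, CTSA, CTSB, CTSC, CTSD, CTSH, CTSL, CTSS, CTSZ, LGMN and CST3, were taken from a table of 60666 Ensembl genes by their symbols. All 10 were found, and 9 passed the filter on low counts that left 18281 genes for testing; CTSL did not.

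Bulk RNA was sequenced with a stranded kit in 7 libraries labelled as the human multiple myeloma line RPMI 8226, and the labels name no treatment. The groups were unedited cells (WT, 2 libraries), cells with an HDAC6 knockout (KO, 2 libraries) and cells with HDAC6 altered at a pair of residues of its ubiquitin-binding zinc finger (RY, 3 libraries). CRISPR-Cas9 editing gave the KO and RY lines. HDAC6 is a mostly cytoplasmic deacetylase that also binds ubiquitin. The comparisons ask how expression differs with the loss of HDAC6 or of its ubiquitin binding. The labels do not say whether an edited line is a single clone or whether replicates are separate cultures, so the edit and the line cannot be told apart. The p-values then speak only of library-to-library spread, possibly of technical origin.

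The libraries labelled RY stood apart from the other 4 and went against their cell type label. Library totals ran from 31368968 to 42813888 reads. Across tested genes log2 CPM (counts per 1000000 reads of scaled library size) correlated at 0.967 or above between WT and KO libraries and at 0.772 to 0.818 where a library labelled RY was paired with any other; genes are not independent replicates here. The summed level of 10 plasma cell markers was 7631 and 8773 CPM in WT, 4740 to 5577 CPM in KO and 328 to 372 CPM in RY, where 9 of the 10 were lower than in WT. The defining marker SDC1 was measured at 201 ± 61.7 CPM in WT (SD, n = 2) and 0.0327 ± 0.0284 CPM in RY (n = 3). The sum of 13 myeloid markers was 172 and 205 CPM in WT, 86.1 to 91.3 CPM in KO and 1305 to 1463 CPM in RY, where 9 of 12 tested were higher than in WT and 1 was lower. Of all tested genes 25.4% were lower and 23.7% higher in RY than in WT. HDAC6 itself was at 57.2 and 77.3 CPM in WT, 19.0 and 12.8 CPM in KO and 90.4 to 110.4 CPM in RY. The edit of the RY line cannot be read from counts per gene. Genes high in RY and nearly absent in KO were present at low levels in WT: for 210 genes that reached 20 CPM in RY and stayed below 1% of their RY value in KO, WT replicate 1 held a median of 4.04% of the RY value and WT replicate 2 a median of 7.09%. Where these came from was not tested, and they are called the RY share below.

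A gene is called here when its adjusted p by edgeR is under 0.05 and its fold is at least 2, and only called genes are said to rise or fall.

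LGMN carried the most extreme difference of the 9 tested genes. Its level was 463 and 681 CPM in the WT libraries, 414 and 300.4 CPM in the KO libraries and 0.0891 ± 0.0360 CPM in the libraries labelled RY, from 2, 4 and 4 reads. Every RY library lay far below every WT and KO library. The RY libraries held 10 LGMN reads in all, against 44074 in WT and 24726 in KO. WT therefore exceeded RY 6622-fold, with an exact counting interval of 3600 to 13810 that covers counting error only (log2 fold change -12.62, SE 0.32, adjusted p = 6.57e-09 by edgeR). KO exceeded RY 4113-fold (interval 2236 to 8578). In bulk RNA, fewer cells of a type and less RNA per cell cannot be told apart.

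Between KO and WT the LGMN values did not overlap, and the difference did not pass the test. KO stood at 357 ± 80.2 CPM and WT at 572 ± 154 CPM (log2 fold change -0.68, 95% interval -1.14 to -0.22, adjusted p = 0.0519 by edgeR). The WT replicates themselves differed 1.47-fold and the KO replicates 1.38-fold. The adjusted p ran from 9.43e-08 to 0.284 over the alternatives tried, and was 0.171 with the RY libraries left out of the fit.

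**Figure D1:**
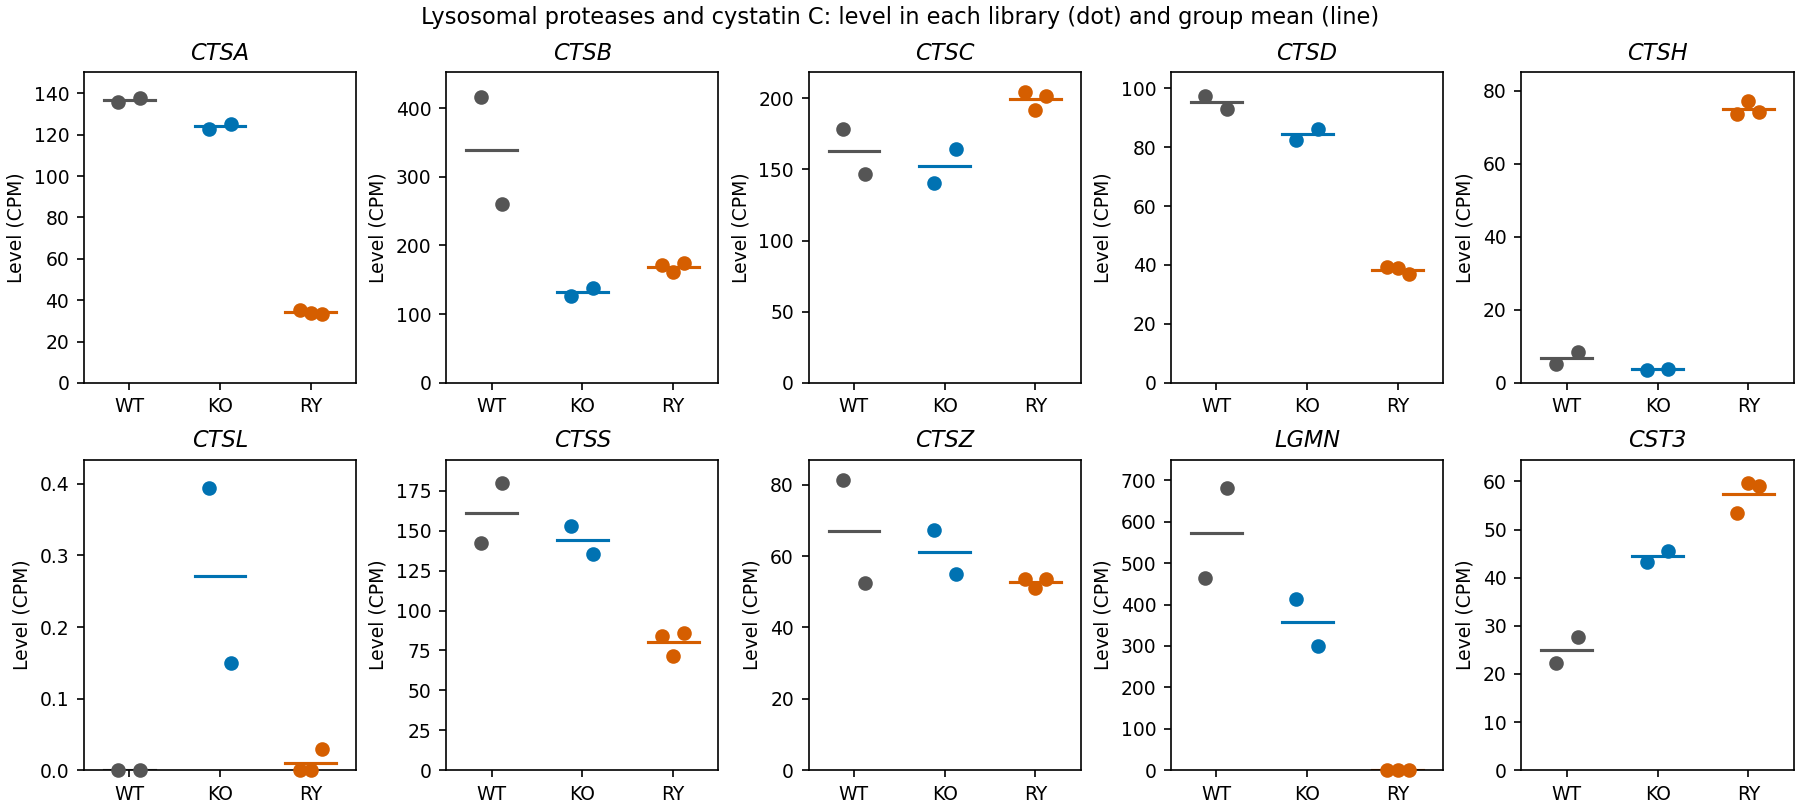
Level of each of the 10 genes in CPM (linear axis from 0, a scale of its own per panel), with a dot per library and a line at the group mean. LGMN reaches 463 to 681 CPM in WT and lies at 0.121 CPM or below in RY, CTSH is high only among the RY dots, and CST3 is lowest in WT.

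The serine carboxypeptidase CTSA and the aspartic protease CTSD differed little between WT and KO and were lower in RY. CTSA, which also stabilises lysosomal beta-galactosidase and neuraminidase in a complex, was at 135.9 and 137.8 CPM in WT, 123 and 125 CPM in KO and 35.0, 33.9 and 33.2 CPM in RY. The RY libraries form a separate low group, 4.02-fold below WT (log2 fold change -2.01, SE 0.08, adjusted p = 6.44e-08 by edgeR) and 3.63-fold below KO (adjusted p = 7.67e-08). CTSD, the main aspartic endopeptidase of lysosomes, was at 97.3 and 92.9 CPM in WT, 82.4 and 86.1 CPM in KO and 39.2, 38.9 and 36.8 CPM in RY. RY was 2.47-fold below WT (log2 fold change -1.31, SE 0.08, adjusted p = 1.08e-06) and 2.19-fold below KO. Scaling by library size alone brought the difference from KO under the minimum (log2 fold change -0.99).

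Both genes had KO libraries that lay just below both WT libraries, without passing the test. For CTSA the KO libraries had a log2 fold change of -0.14 from WT (95% interval -0.34 to 0.05) and for CTSD -0.17 (95% interval -0.38 to 0.03). CTSA exons overlap NEURL2 and PLTP exons on the opposite strand, and CTSD shares exons with the read-through gene AC068580.4 on its own strand. As no source used here gives the strand setting of the counting, values of both genes carry that uncertainty.

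Of the 7 members searched, CTSA and CTSD were those whose upstream sequence held a CACGTG hexamer, the E-box core that transcription factors of the TFEB family recognise. CTSB, CTSS and LGMN could not be searched, so no link between the hexamer and the direction in RY was tested. The stretches below are shown because they hold those hexamers, in capitals, next to the stretches of CTSH and CST3, which were higher in RY and have none. They come from RefSeq on GRCh38.p14, 5′ to 3′ on the gene's strand. They are kept short because GENCODE annotates untranslated exons of other transcripts there.
CTSA, chr20:45891290-45891319, plus strand: tgtCACGTGgcgccggagtTCACGTGActc
CTSD, chr11:1763957-1763986, minus strand: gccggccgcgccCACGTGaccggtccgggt
CTSH, chr15:78945062-78945091, minus strand: tcccgccgctcctccacgctcgtgccgctc
CST3, chr20:23637971-23638000, minus strand: aaggccggaagggataaaaccgcagtcgcc
The 250 bases before the start were searched on both strands for 7 members that the promoter table holds: these 4, CTSC, CTSL and CTSZ. CACGTG lay 42 to 37 and 25 to 20 bases before the start of CTSA and 47 to 42 bases before that of CTSD, and 6.34% of 35116 promoters hold it. The second CTSA copy is part of TCACGTGA, the core of the element known for lysosomal genes, present in 0.854% of promoters. CTSC and CTSZ, called in neither direction in RY against WT, and CTSL, not tested, held no CACGTG either. A match describes letters in this window, and the lack of one says nothing about a factor.

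CTSH, a papain-like cathepsin, was higher in RY, where LGMN was lower. This aminopeptidase, which matures surfactant protein and other substrates, was at 5.27 and 8.40 CPM in WT, 3.63 and 3.75 CPM in KO and 73.8, 77.4 and 74.3 CPM in RY. All 3 RY libraries were far above the other 4, 10.9-fold above WT (log2 fold change 3.45, SE 0.19, adjusted p = 4.47e-07 by edgeR) and 20.4-fold above KO (log2 fold change 4.35, adjusted p = 1.40e-07). KO was at 53.3% of the WT level (log2 fold change -0.89, adjusted p = 0.0161), under the 2-fold minimum. At the values given above, the RY share would come to 57.6% of the CTSH level of WT replicate 1 and 63.4% of that of WT replicate 2. With that share subtracted from the WT counts, an alternative chosen after seeing the data, CTSH had a log2 fold change of 0.35 in KO (adjusted p = 0.254) and of 4.70 in RY, both against WT. Without WT replicate 1 the KO value was -1.19 (adjusted p = 5.58e-05), past the minimum, and with the RY libraries left out of the fit its adjusted p was 0.137.

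CTSB was the single member called between KO and WT. CTSB, an abundant lysosomal endopeptidase and dipeptidyl carboxypeptidase, was at 416 and 260.4 CPM in WT, 127 and 138 CPM in KO and 171, 161 and 175 CPM in RY. The WT libraries lay above all others, but they also differed 1.60-fold from each other. KO was 2.52-fold below WT (log2 fold change -1.35, SE 0.19, adjusted p = 0.00138 by edgeR). The difference kept its direction under every alternative tried, with log2 fold changes from -1.65 to -0.97. It fell short of the 2-fold minimum without WT replicate 1 (log2 fold change -0.97). With the RY libraries left out of the fit its adjusted p was 0.0171 by edgeR, the highest over the alternatives. The authors' deposited table lists a log2 fold change of -1.35 for it, with an adjusted p of 0.000168.

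The RY libraries had a CTSB level 1.98-fold below WT, with a log2 fold change of -0.9998 that missed the minimum narrowly (SE 0.17, adjusted p = 0.000565). It was called under 10 of 15 alternatives, and its log2 fold change ran from -1.30 without WT replicate 2 to -0.62 without WT replicate 1. Between RY and KO the log2 fold change was 0.35 (95% interval -0.04 to 0.74, adjusted p = 0.0926). The RY share would come to 1.64% and 4.604% of the CTSB level in WT replicates 1 and 2.

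CTSS lay on the other side of the same line. CTSS, an elastinolytic enzyme that removes the last part of the invariant chain in B cells, was at 143 and 179.9 CPM in WT, 153 and 135 CPM in KO and 84.0, 71.5 and 85.8 CPM in RY. The RY libraries were below every WT and KO library, 2.03-fold below WT (log2 fold change -1.004, SE 0.13, adjusted p = 9.32e-05 by edgeR). That call was lost with library size as the sole scaling (log2 fold change -0.81), with no filter on low counts (-0.9975), without RY replicate 2 (-0.93) and without WT replicate 2 (-0.83). RY was 1.81-fold below KO, short of the minimum (adjusted p = 0.000279). WT and KO overlapped, with a log2 fold change of -0.16 (95% interval -0.48 to 0.16).

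CTSC and CTSZ were called in none of the 3 comparisons. CTSC, the dipeptidyl peptidase that activates granule serine proteases such as elastase and cathepsin G, was at 179 and 147 CPM in WT, 140.4 and 164 CPM in KO and 205, 192 and 202 CPM in RY. RY had the higher values, 1.23-fold above WT (adjusted p = 0.0419 by edgeR) and 1.31-fold above KO (adjusted p = 0.0124), both under the 2-fold minimum. CTSZ, a carboxypeptidase, was at 81.4 and 52.6 CPM in WT, 67.4 and 55.1 CPM in KO and 53.5, 51.1 and 53.7 CPM in RY. The WT values of CTSZ spanned those of KO and overlapped those of RY, and its log2 fold changes were -0.13 for KO against WT (95% interval -0.56 to 0.30) and -0.34 for RY against WT (95% interval -0.73 to 0.04). With RY replicates within 1.07-fold of each other for CTSC and 1.051-fold for CTSZ, the wider spread was among WT and KO libraries.

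CTSL was close to the limit of detection throughout. This broad endopeptidase had 0 reads in both WT libraries, 14 and 5 reads in the KO libraries and 0, 0 and 1 read in the RY libraries. Taking 3 reads over the WT libraries together as a floor, KO was at least 7.01-fold higher than WT, at a KO level of 0.276 CPM. The gene did not enter the main test, and with no filter on low counts its adjusted p was 0.00563 between KO and WT by edgeR. The authors' deposited table lists it with a log2 fold change of 6.41 and an adjusted p of 0.00365 for KO against WT. Its near copy CTSV had 0.159 ± 0.0495 CPM in WT and 0.174 ± 0.00803 CPM in KO with 0 reads in RY, and reads common to both genes cannot be assigned from gene counts.

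The inhibitor CST3 had its lowest values in WT and its highest in RY. It was at 22.3 and 27.8 CPM in WT, 43.3 and 45.6 CPM in KO and 53.5, 59.6 and 59.1 CPM in RY, and no group overlapped another. RY was 2.28-fold above WT (log2 fold change 1.20, SE 0.12, adjusted p = 1.99e-05 by edgeR). KO was 1.76-fold above WT (log2 fold change 0.83, 95% interval 0.54 to 1.12, adjusted p = 0.00225), under the 2-fold minimum in the main test and in all alternatives that kept it. RY and KO differed 1.29-fold (adjusted p = 0.0170). The KO and RY comparisons share the WT libraries.

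**Figure D2:**
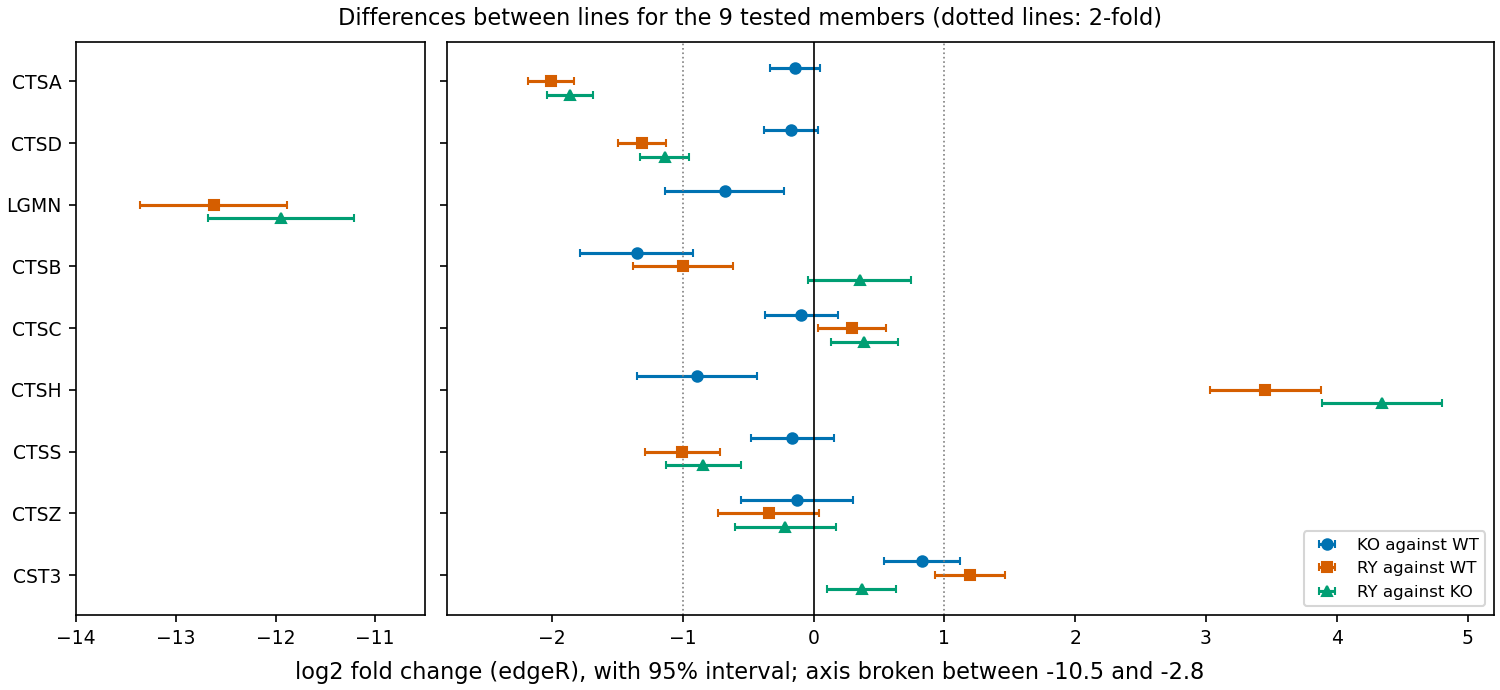
Log2 fold changes from edgeR with 95% intervals for the 9 tested genes in 3 comparisons, with dotted lines at a 2-fold difference and a broken axis that places LGMN of RY at the left. CTSB is the one gene past the line between KO and WT, and CTSB and CTSS of RY against WT sit on it.

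Counted together, 1 of the 9 tested genes was called between KO and WT, lower in KO, where 10.9% of all tested genes were called (7.64% lower, 3.3% higher). This share is near the background. The adjusted p alone was under the threshold for 3 genes, CTSB, CTSH and CST3, and the libraries did not overlap for 6 of 9, against 16% and 48.7% of all tested genes. The log2 fold changes of 8 of the 9 were below 0. Their median over the 9 was -0.16, beside -0.01 over all tested genes.

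Between RY and WT 6 of 9 were called, with CTSA, CTSD, CTSS and LGMN lower and CTSH and CST3 higher, where 49.1% of all tested genes were called (25.4% lower, 23.7% higher). The adjusted p alone was under 0.05 for 8 of the 9, against 72.4% of all tested genes. The median log2 fold change of the 9 was -0.9998, against -0.03 over all genes. The libraries of RY and WT did not overlap for 8 of the 9, CTSZ being the exception, against 81.7% of all tested genes. Between RY and KO 4 of 9 were called, CTSA, CTSD and LGMN lower and CTSH higher, where 50% of all tested genes were called (26.0% lower, 24.0% higher). By adjusted p alone it was 7 of 9, against 73.4% of all tested genes. The libraries did not overlap for any of the 9, against 84.6% of all tested genes, and their median log2 fold change was -0.22. With library size as the sole scaling, the median over all genes moved from -0.03 to 0.16 for RY against WT and from -0.03 to 0.11 for RY against KO.

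The order of the genes by level per length of exon differed between the lines. On the scale of CPM per kilobase of exon, LGMN led in WT at 147 ± 39.4 and in KO at 91.6 ± 20.6, which placed it above 98.8% and 98.0% of tested genes. In WT, CTSB (45.5 ± 14.8), CTSS (38.1 ± 6.24), CTSZ (32.9 ± 10.0) and CTSD (30.4 ± 0.991) followed, and these neighbours did not differ beyond their spread. In RY the first place went to CTSZ at 25.9 ± 0.711, followed by CTSB (22.8 ± 0.967) and CTSS (19.0 ± 1.84). CTSH stood at 1.16 ± 0.375 in WT and 12.8 ± 0.331 in RY, where CTSC stood at 17.4 ± 0.598. The SDs are over 2 WT, 2 KO and 3 RY libraries. Lengths are unions of all annotated exons, 11421 bases for CTSC and 2038 bases for CTSZ, and the order depends on them. In CPM without length, CTSC was the highest member in RY at 199 ± 6.83, against 52.8 ± 1.45 for CTSZ.

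**Figure D3:**
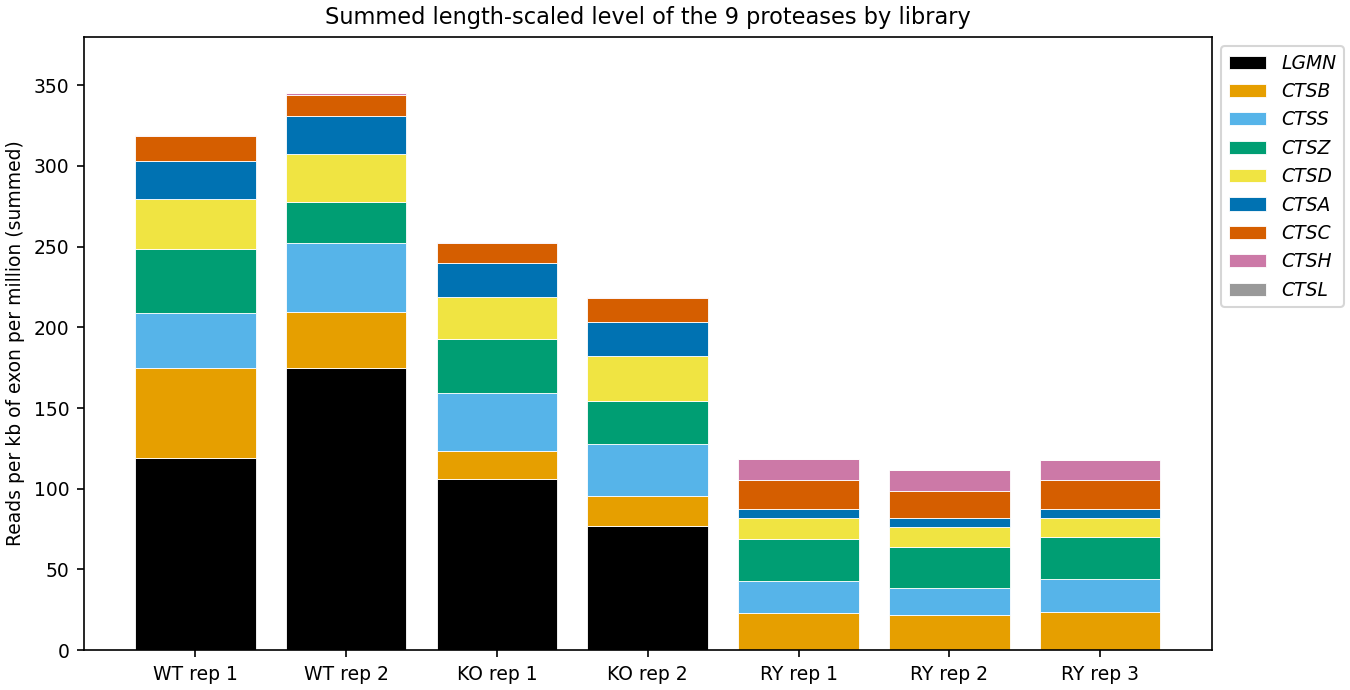
Summed level of the 9 proteases per library in CPM per kilobase of exon (union of annotated exons), divided by gene (linear axis from 0). LGMN makes up 35.2% to 50.5% of the bar in WT and KO and at most 0.0263% in RY, where CTSH takes 10.6% to 11.7%.

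The summed level of the 9 proteases on this scale was 319 and 345 in WT, 253 and 219 in KO and 118, 112 and 118 in RY. Most of the gap between RY and the other groups came from LGMN. Without it the sums were 201 and 171 in WT, 147 and 142 in KO and 118, 112 and 118 in RY. LGMN alone made up 37.2% and 50.5% of the sum in the WT libraries and 42.0% and 35.2% in the KO libraries. The 6 papain-like cathepsins CTSB, CTSC, CTSH, CTSL, CTSS and CTSZ added to 24.2 and 15.7 times the CST3 level in WT, 8.48 and 7.50 times in KO and 6.87, 5.80 and 6.29 times in RY. The WT ratios lay above all others. These sums and ratios depend on the exon lengths used, are descriptions of RNA and carry no test.

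The genes lie on 7 chromosomes, with CTSA, CTSZ and CST3 on chromosome 20 and CTSC and CTSD on opposite arms of chromosome 11. Their neighbours, the tested protein-coding genes within 5 Mb on either side, had median log2 fold changes between KO and WT from -0.15 around CTSL to 0.16 around CTSC. CTSB (chromosome 8, 11842524 to 11869448, GRCh38) was at -1.35 while the median of its 19 neighbours was 0.10, and 5.26% of them lay below it. CST3 (chromosome 20, 23626706 to 23638473) was above 96.2% of its 26 neighbours, whose median was -0.07. In RY against WT, LGMN (chromosome 14, 92703807 to 92748702) lay below all 52 neighbours, which had a median of 0.70. CTSH (chromosome 15, 78921058 to 78949574) exceeded 91.7% of 84 neighbours with a median of 0.01, and CTSS (chromosome 1, 150730196 to 150765957) lay at -1.004 near its neighbours' median of -0.82.

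The genes nearest in pattern to the tested proteases, by root mean square distance of centred log2 CPM over the 7 libraries, were TIPARP and MFN1 for CTSA (0.049 and 0.052) and PARP14 and SPSB1 for CTSB (0.11 and 0.16). PLOD3 and UBXN4 were nearest to CTSD (both 0.044), GOLGA8R and PTGR1 to CTSH (0.056 and 0.065), and SMAD7 and CCDC90B to CTSS (0.052 and 0.057). For CTSC they were HNRNPD and RAD23B (0.017 and 0.022) and for CTSZ SPOUT1 and IRF8 (0.060 and 0.069). LGMN was nearest to the trypsinogen gene PRSS2 and to CD28, at the larger distances of 0.15 and 0.20. PRSS2 has near-identical copies, which makes its counts uncertain. PRSS2 stood at 598 CPM in WT, 336 CPM in KO and 0.0383 CPM in RY. Within a distance of 0.5 lay 52.1% of tested genes for CTSC and 0.0985% for LGMN.

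Other cathepsins were mostly low, and they split by line. Of 7, 4 were tested. CTSF, a papain-like cathepsin, had 17.3 ± 3.32 CPM in WT, 13.2 ± 2.27 CPM in KO and 0 reads in RY, at least 664-fold lower than in WT against a floor of 3 reads over the RY libraries. CTSG, a serine protease of neutrophil granules, was higher in RY at 17.1 ± 1.76 CPM, with 0.139 and 1.09 CPM in WT and 0 reads in KO. CTSO, a widely expressed papain-like cathepsin, rose in KO from 0.894 ± 0.598 to 6.71 ± 2.24 CPM (7.37-fold, adjusted p = 0.00238 by edgeR), and CTSK, the collagenase of osteoclasts, from 0.398 ± 0.210 to 1.26 ± 0.0446 CPM (3.11-fold, adjusted p = 0.0479). With the RY share subtracted from WT the CTSK call in KO was lost (adjusted p = 0.0809). CTSK was lower in RY than in WT, at 0.0184 ± 0.0162 CPM.

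Among 6 tested inhibitors other than CST3, 2 fell in KO and 4 were not called, and 3 rose and 2 fell in RY against WT. Of all tested genes 7.64% were lower and 3.3% higher in KO, and 25.4% lower and 23.7% higher in RY, each against WT. CSTB, the cytosolic inhibitor stefin B, was lower in RY, at 57.4 ± 1.08 CPM against 244 ± 23.9 in WT (4.22-fold, adjusted p = 1.17e-07 by edgeR), and so was the carboxypeptidase inhibitor gene LXN at 1.66 ± 0.314 against 14.4 ± 2.29 CPM. CSTA, stefin A, rose to 50.9 ± 5.43 CPM in RY from 3.36 ± 1.81 in WT, with 0.173 ± 0.0331 in KO. CST7, cystatin F of leukocytes, rose to 14.3 ± 0.826 CPM from 1.41 ± 0.224 in WT, with 0.0300 ± 0.0424 in KO. Of 7 other lysosomal peptidases 2 fell in KO and 5 were not called, and 2 fell and 2 rose in RY. TPP1, a tripeptidyl peptidase, and DPP7, a dipeptidyl peptidase, fell 5.03-fold and 5.11-fold in RY against WT, while CPVL and CPQ, both carboxypeptidase genes, rose 17.4-fold and 2.77-fold.

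The wider lysosomal lists held 112 tested genes in all, and in KO against WT 10 were lower, 2 higher and 100 not called, or 10.7% called against 10.9% of all tested genes. Of 15 vacuolar ATPase genes, which acidify the lysosome, 0 were called in KO by edgeR and 0 by DESeq2, while 4 had an unadjusted p under 0.05. Of the other lists, 1 of 38 other hydrolases, 1 of 20 membrane proteins, 2 of 17 targeting genes and 1 of 5 transcription factors were called, each lower. Of the 10 that were lower, 8 had a mean RY level above that of WT, namely CTSG, CPVL, CPQ, CSTA, CST7, GALC, SORL1 and TFEC. With the RY share subtracted from WT, 5 of the 10 were still called lower: CPQ, CST7, TFEC, SORT1 and LAPTM4B. SORL1 turned to called higher in KO under that subtraction (adjusted p = 2.66e-05 by edgeR), and CTSG, CPVL, CSTA and GALC were not called. Counts that the subtraction took below 0 were set to 0, which limits how these outcomes can be read. For CTSG the share exceeded both WT levels and KO had 0 reads, so no call was possible. CSTA met the rule that chose the 210 genes behind the share, so its lost call followed in part from that choice. SORT1 and LAPTM4B had RY levels below WT. SORT1, a sorting receptor that carries hydrolases from the Golgi, was at 86.0 and 121 CPM in WT, 19.1 ± 3.62 CPM in KO and 2.63 ± 0.300 CPM in RY. LAPTM4B, a lysosomal membrane protein gene, had 9.02 ± 2.60 CPM in WT and 1 read each in the KO and RY groups.

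In RY against WT 33 of the 112 were lower and 19 higher, or 46.4% called against 49.1% of all tested genes, with a median log2 fold change of -0.53. Among hydrolases 9 of 38 fell and 6 rose. The phospholipase gene PLA2G15 fell 8.34-fold, and SGSH, a heparan sulfatase, had 0 reads in RY and was at least 1292-fold lower. Of 20 membrane proteins 8 fell and 2 rose; CTNS, the cystine transporter, fell 4.36-fold, LAMP3 fell from 24.7 ± 8.07 to 0.0101 ± 0.0175 CPM, and the sialomucin gene CD164 rose 3.82-fold to 843 ± 33.7 CPM.

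The acidification and targeting genes also went both ways in RY, where 25.4% of all tested genes were lower than in WT and 23.7% higher. Of 15 vacuolar ATPase genes 3 fell and 2 rose. ATP6V0A1, an isoform of the proton channel's large subunit, fell 276.8-fold to 0.343 ± 0.142 CPM, ATP6V0D1 fell 2.31-fold and ATP6V1B2 rose 2.33-fold. Of 17 targeting genes 6 fell and 1 rose. NAGPA, which uncovers the mannose 6-phosphate tag, fell 11.8-fold, GNPTG, a subunit of the enzyme that adds it, fell 4.68-fold, and SORT1 fell 39.8-fold. Among transcription factors TFEB rose 2.5-fold to 18.8 ± 1.32 CPM and TFEC rose 2.87-fold, while MITF fell 3.34-fold.

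**Figure D4:**
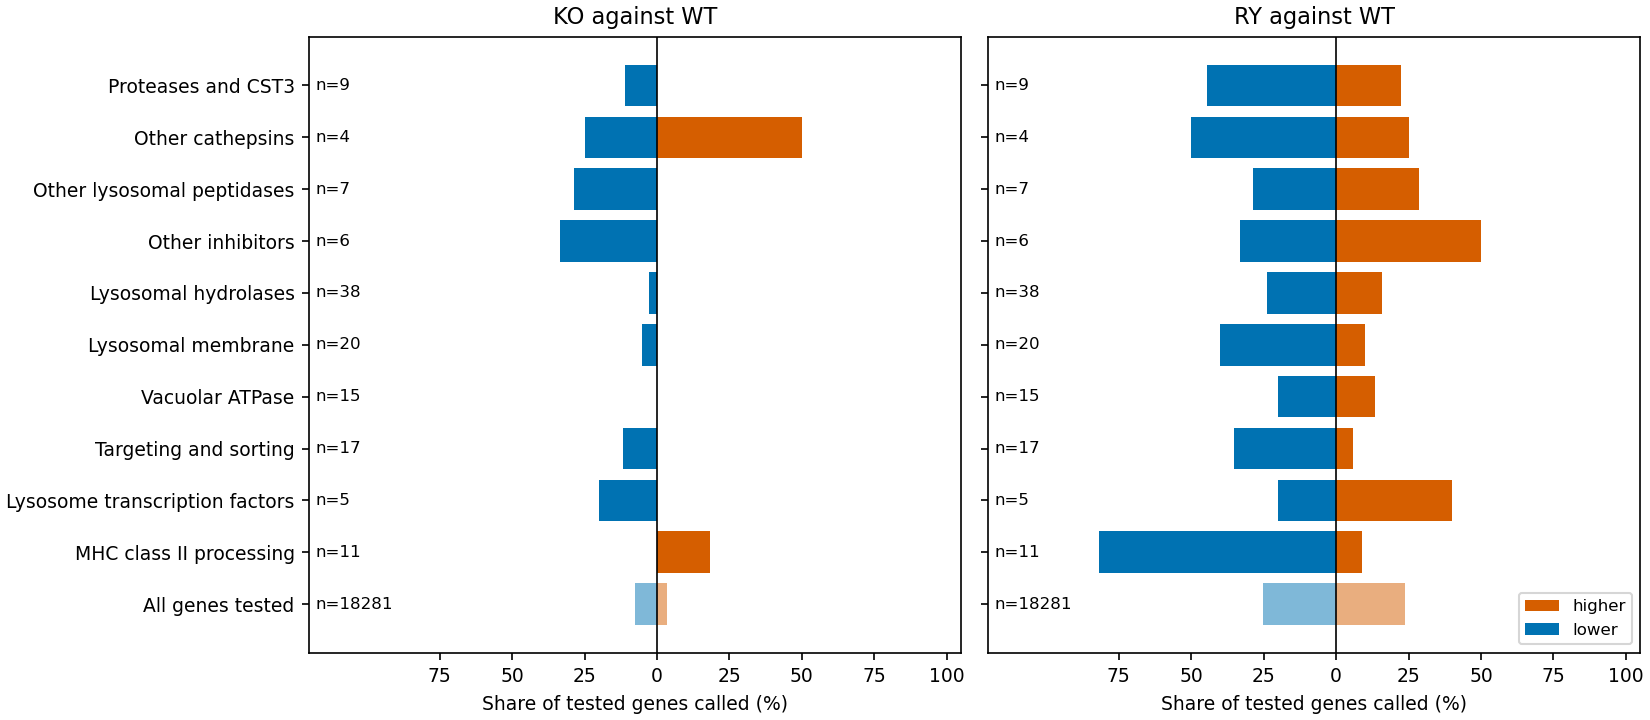
Share of tested genes called higher (right) and lower (left), in percent, for the 9 tested members, 8 lists of other lysosomal genes, MHC class II processing genes and all tested genes, with the number tested at the left of each bar. Between KO and WT the share called ran from 0% of 15 vacuolar ATPase genes to 75% of 4 other cathepsins, against 10.9% of all tested genes. In RY against WT the class II list extends furthest to the lower side, at 9 of 11.

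MHC class II processing genes, whose products meet CTSS, CTSH and LGMN in endosomes, were mostly lower in RY. Of 11 tested 9 were lower and 1 higher than in WT, where 25.4% of all tested genes were lower and 23.7% higher. Among the genes called were CD74, the invariant chain, at 207 ± 12.4 against 587 ± 37.5 CPM, the class II transactivator gene CIITA (23.7-fold) and HLA-DRA (23.1-fold). In KO 2 were higher and 9 were not called, where 3.3% of all tested genes were higher than in WT. The 2 were HLA-DRB1 at 2.22 ± 0.554 CPM and HLA-DQA1 at 0.788 ± 0.159 CPM.

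The cell type markers given above differed in the same libraries, and their part in the RY differences was not tested. Plasma cell markers were lower and myeloid markers higher in the same libraries in which LGMN was lower and CTSH and CTSG were higher. Of 5 epithelial markers the 4 tested were lower in RY and the whole list summed to at most 0.272 CPM there. The T cell list summed to 234 to 245 CPM in RY, of which CD4, found on monocytes too, made up 239 ± 5.87 CPM, and 2 of its 8 genes had 0 reads. Erythroid markers had 0 reads in RY, and fibroblast markers summed to at most 10.9 CPM in any library. B cell markers summed to 109 and 115 CPM in WT, 96.9 and 109.9 CPM in KO and 31.1 to 35.0 CPM in RY, with 5 of 7 tested higher and 2 lower than in WT. The shares over all tested genes were 23.7% higher and 25.4% lower.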

How the data were processed

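The table analysed holds the authors' deposited raw read counts per Ensembl gene for 7 libraries. The submitters' processing notes name STAR 2.7.4, HTSeq 0.9.1, edgeR 1.34.1, FastQC and build GRCh38, without roles; the annotation release, strand setting and read filters are not given in the sources used here, which leaves overlapping genes and near copies uncertain. The deposited normalized table was not used. The authors' deposited tables give a log2 fold change and an adjusted p-value per listed gene, and were used only where named.

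The test was edgeR's quasi-likelihood F test (version 4.0.16, R 4.3.3) on the counts of all 7 libraries in 1 fit, with TMM scaling, no covariates and filterByExpr at a minimum count of 10. A gene was called at a Benjamini-Hochberg adjusted p under 0.05 over 18281 genes and a fold of at least 2. SE is the log2 fold change over the root of F. CPM values are counts per 1000000 reads of TMM-scaled library size, and folds are ratios of pooled group levels. Exon lengths are unions of all annotated exons of a gene in GENCODE 29. The distance between patterns used a pseudocount of 0.5 CPM. Floors of 3 reads and the exact intervals of the LGMN folds cover counting error only. The 95% intervals of log2 fold changes use that SE and so include the spread between libraries in the edgeR fit. On simulated data 100% of 200 genes changed 4-fold were recovered in each comparison of 18281 genes, with 4 to 5 false calls. The changed genes were drawn from those that were not low. Counts were drawn with the spread per gene estimated in the same edgeR fit, so the simulation cannot test that spread. The simulation did not cover differences near 2-fold, low genes or a difference in many genes at once.

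The members and lists were chosen with earlier results of these data known. Besides the members, the rule named up to 3 called genes per list and comparison by adjusted p, or its most abundant member, and the 2 nearest genes per member; a selection of these is printed, and some are not reported here. Same-numbered WT and KO replicates deviated in opposite directions (r = -0.517), and the main test did not pair libraries by number. With 2 libraries in each of these groups this is a single value, which cannot decide whether libraries were handled together. Alternatives were other scalings (library size only, relative log expression factors), no filter, DESeq2 1.42.0, only the 2 groups compared, a replicate block, no fold minimum, and leaving out each library; a crossed block and subtraction of the RY share from WT were added after seeing the data.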

Additional observations from a re-analysis of the deposited data

How the results depend on the processing

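Of 414 values of single members under alternatives, 384 kept direction and call. Reversals were confined to differences that were not called: between KO and WT the log2 fold change was 0.014 for CTSC without KO replicate 1 and 0.055 without WT replicate 1, 0.016 for CTSS without WT replicate 2, 0.032 for CTSZ without KO replicate 2 and 0.22 without WT replicate 1, and 0.35 for CTSH with the RY share subtracted from WT; between RY and WT it was 0.0048 for CTSZ without WT replicate 1. Leaving out 1 library, the lowest values of the same differences were -0.23 for CTSC, -0.32 for CTSS and -0.41 for CTSZ between KO and WT and -0.63 for CTSZ between RY and WT. With no fold minimum the called members were 3 for KO against WT and 7 for RY against KO, in place of 1 and 4, and the other lysosomal genes called were 21, 97 and 93 for KO against WT, RY against WT and RY against KO, in place of 12, 52 and 58, since fewer criteria apply. Leaving out 1 library gave 1 member for KO against WT, which was CTSH in place of CTSB without WT replicate 1, 5 to 7 members for RY against WT and 4 for RY against KO. A replicate block gave 1, 7 and 4 members in the 3 comparisons (1564, 8440 and 8598 of all genes), and among members it changed the call of CTSB in RY against WT (log2 fold change -1.004, adjusted p = 0.00309). Same-numbered WT and KO libraries deviated in opposite directions (r = -0.517), a single value that cannot decide whether they were handled together. The crossed pairing, added after seeing the data, on WT and KO libraries only, gave 1 member and 2205 genes, against 1 and 1438 without a block. Depth limits CTSL, with at most 14 reads in a library.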
